A study of Mus musculus with 6 samples.

Results

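Long noncoding RNAs are transcripts of genes that carry no protein-coding frame. Here they are the 126 genes annotated as lincRNA or as antisense that were measurable in mouse cerebellum. As a type, lincRNA names a noncoding gene between other genes, and antisense a noncoding gene on the strand opposite another gene. Some lincRNA members still overlapped a coding gene, such as Gm2694 with Cbln1 and Snhg6 with Mcmdc2. The 126 members were chosen by 3 criteria: the GENCODE M21 gene type, a place on chromosomes 1 to 19, and a mean of at least 5 CPM (counts per 1000000 counts of the column) over all 6 libraries. Of 48709 rows in the count table, 5598 had either gene type on those chromosomes, 3471 of these had a count in any library, and 126 reached the floor (80 lincRNA and 46 antisense). The rule used the mean over both genotypes and not their difference, so the levels below are a description and the difference between genotypes could be tested. The members just above the floor were Gm42047 (5.05 CPM), A630072M18Rik (5.05 CPM) and Dlx4os (5.03 CPM), and the genes just below it were Gm42067 (4.93 CPM), 6720427I07Rik (4.85 CPM) and Gm20163 (4.82 CPM).

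The study compared cerebella of wild-type C57BL/6J mice with cerebella of C57BL/6J mice that carry an SCA7 knock-in at Atxn7 (labelled 140Q/5Q, heterozygous), all aged 40 weeks, with 3 samples in each group. In people, a lengthened run of glutamines in ataxin-7, a subunit of the chromatin-modifying complex SAGA, leads to the ataxia SCA7. The labelled alleles code for 140 glutamines on the long allele and 5 on the short one. The libraries were made from polyadenylated RNA of whole cerebellum with a kit that preserves strand, and held 34630391 to 49127673 counts each. The labels do not say that the 3 samples of a group came from separate animals, and the spread behind each p-value is the one between these samples, which may be technical.

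Long noncoding RNAs act in several known ways: some hold nuclear bodies together, some silence neighbouring genes in cis, some bind proteins or microRNAs, and some are the precursors from which microRNAs or small nucleolar RNAs are cut. Many are transcribed from the same promoter region as a coding gene, in the opposite direction. In brain they are often restricted to particular cell types, and for most of the members named only by a number no function is known.

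The sequences below show what kinds of RNA the members are. The first set is mature microRNAs whose hairpins lie inside members, on the same strand, printed 5′ to 3′ from RefSeq (GRCm38.p6) with the seed, bases 2 to 8, in capitals. The members C130071C03Rik, Mir9-3hg and Gm3764 contain the hairpins Mir9-2, Mir9-3 and Mir9-1, which all give the same miR-9-5p, a brain microRNA. Mir670hg contains Mir129-2 and Mir670. The 3 seeds differ.
miR-9-5p: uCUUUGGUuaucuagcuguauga
miR-129-5p: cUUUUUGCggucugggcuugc
miR-670-5p: aUCCCUGAguguauguggugaa
The next pair is miR-7a-5p, seed in capitals, and the site for it in 1700020I14Rik (Oip5os1, known as Cyrano), whose known function is to direct the degradation of miR-7. The site covers bases 2934 to 2959 of transcript ENSMUST00000153581.1, and its capitals mark the run of 13 bases and the 7-base seed match that are complementary to the microRNA.
miR-7a-5p: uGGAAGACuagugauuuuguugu
Cyrano site: aACAACAAAATCACcaatGTCTTCCa
The seed match GTCTTCC alone occurred in transcripts of 25 of the 126 members, and a further one in Cyrano (bases 744 to 769) had a longest complementary run outside the seed match of only 3 bases. The last set is from members whose levels are described below. For Gm13944 and Lhx1os it is the RefSeq promoter window, 250 bases before to 50 after the start, with each CCAAT (the box bound by the factor NF-Y) in capitals. The Gm13944 window is chr2:77462394-77462693 on the plus strand and the Lhx1os window chr11:84525410-84525709 on the plus strand.
Gm13944: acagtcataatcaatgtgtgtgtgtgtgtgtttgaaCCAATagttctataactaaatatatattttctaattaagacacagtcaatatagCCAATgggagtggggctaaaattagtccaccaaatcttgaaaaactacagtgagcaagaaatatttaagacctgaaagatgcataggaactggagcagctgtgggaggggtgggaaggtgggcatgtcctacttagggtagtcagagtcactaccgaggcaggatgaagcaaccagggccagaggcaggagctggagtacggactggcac
Lhx1os: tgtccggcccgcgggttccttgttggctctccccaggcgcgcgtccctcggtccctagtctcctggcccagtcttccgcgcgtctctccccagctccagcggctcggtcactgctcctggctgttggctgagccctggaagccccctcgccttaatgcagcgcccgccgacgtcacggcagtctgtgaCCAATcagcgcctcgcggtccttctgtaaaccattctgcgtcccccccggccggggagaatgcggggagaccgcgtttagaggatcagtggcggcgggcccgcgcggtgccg
The windows contrast in base composition: Lhx1os had 69.3% G and C and 33 CG pairs, and Gm13944 had 44.3% G and C and 2 CG pairs. A promoter window was found for 70 of the 126 members, with a median of 60% G and C and 18.5 CG pairs, against 52.7% and 7 CG pairs over all 32851 windows of the table. CCAAT, on either strand, lay in 42.9% of the members' windows and 37.4% of all windows. TATAAA lay in 8.57% (6 windows) against 13.6%, CACGTG in 14.3% (10 windows) against 7.15%, and TGACGTCA in 7.14% (5 windows) against 1.79%. For each member the window nearest its GENCODE start was taken, at up to 12844 bases from it. The comparison pooled all windows of the table, and these differences were not tested. For Gm5083 and Gt(ROSA)26Sor the first 150 bases of a GENCODE transcript (ENSMUST00000163056.7 and ENSMUST00000124246.3) are shown, all in lower case.
Gm5083: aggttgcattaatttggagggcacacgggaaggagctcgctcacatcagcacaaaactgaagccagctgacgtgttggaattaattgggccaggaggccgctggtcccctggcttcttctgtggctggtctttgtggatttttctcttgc
Gt(ROSA)26Sor: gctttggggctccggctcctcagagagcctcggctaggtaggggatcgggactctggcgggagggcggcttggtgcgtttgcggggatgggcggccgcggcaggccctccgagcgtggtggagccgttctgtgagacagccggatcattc
The stretch from Gt(ROSA)26Sor had 69.3% G and C and that from Gm5083 52.7%.

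A few members held most of the counts. Gm42418 alone held 33.1% of the members' summed CPM, the 3 most abundant members 53.9% and the 10 most abundant 67.4%. The median member was at 9.87 CPM, 62 members were at 10 CPM or more, 11 at 50 or more and 4 at 100 or more. Below, CPM is scaled by the TMM-adjusted library size unless column totals are named. The median coefficient of variation between the 3 samples of a group was 8.42% in wild type and 10.3% in knock-in. Among the 6 libraries, wild-type sample 1 was the highest for 43 of the 126 members and wild-type sample 2 the lowest for 37.

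**Figure D1:**
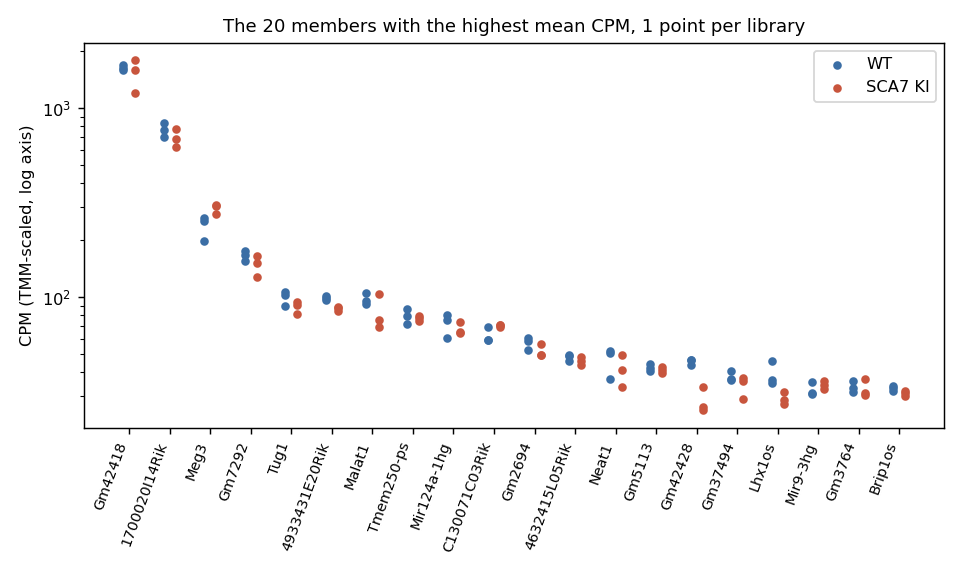
CPM (TMM-scaled, logarithmic axis) of the 20 members with the highest mean level, with 1 point for each library, wild type in blue and SCA7 knock-in in red. Gm42418 lies between 1206 and 1794 CPM and Cyrano (1700020I14Rik) between 626 and 834, and only for a few members, such as Gm42428 and Meg3, do the colours separate.

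Gm42418, the most abundant member, lies within a ribosomal RNA locus on chromosome 17 (chr17:39846958-39848788), and 99.5% of its single exon is covered by models on the other strand. It was at 1595, 1690 and 1638 CPM in the wild-type samples against 1593, 1206 and 1794 CPM in those with the knock-in. The groups overlapped, with knock-in sample 2 the lowest and knock-in sample 3 the highest (log2 fold change -0.10 ± 0.12 (SE, n = 3 per group), edgeR adjusted p = 0.709). The rRNA model on the other strand, CT010467.1, was at 2.13 CPM by column totals and the lincRNA model AY036118 at 0 in all 6 libraries.

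Cyrano, the second most abundant, was at 767, 834 and 703 CPM in the wild-type samples against 685, 773 and 626 CPM in those with the knock-in. The groups overlapped (log2 fold change -0.14 ± 0.10, edgeR adjusted p = 0.462). Its nearest coding gene is Oip5, 2010 bases away and tail to tail. Meg3, a maternally expressed imprinted RNA, was at 252, 198 and 262 CPM in the wild-type samples against 309, 303 and 274 CPM in those with the knock-in. All 3 knock-in samples lay above all 3 wild-type samples, but the difference did not pass the test (log2 fold change 0.32 ± 0.11, edgeR adjusted p = 0.167).

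Per kilobase of exon the order of levels changed. Gm42418 led at 866 CPM per kb, followed by Gm42428 (122), Cyrano (88.0), Gm7292 (62.1), Lhx1os (48.9), Gm29562 (32.3), Tmem250-ps (31.5), Gm15564 (28.8), Gm5083 (22.2), 2810001G20Rik (14.8) and Meg3 (14.7). These neighbours in the order differ in exon length as well as in count: Meg3 has 18089 exonic bases in all its transcripts and Lhx1os 698. Several of the high ranks belong to members with close copies elsewhere in the transcriptome. Gm29562 was covered over 100% of its length by matches of at least 90% identity to transcripts of 33 other genes, and Gm7292 matched 2900097C17Rik (Norad) at 99.2% identity over 2537 bases.

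The share of the libraries taken by all members together differed between genotypes by less than the spread of the samples. They held 0.494%, 0.468% and 0.473% of all wild-type counts, against 0.498%, 0.441% and 0.502% of the knock-in counts. The groups overlapped, and the mean difference was 0.0020 percentage points (exact two-sided permutation test, p = 0.9, where the smallest possible p is 0.1). Without Gm42418 the wild-type libraries had 0.336%, 0.307% and 0.312%, and the knock-in libraries 0.333%, 0.320% and 0.316% (exact permutation p = 0.6). With the TMM-scaled library sizes used for the levels, the mean share of all members was 0.491% in wild type and 0.468% in knock-in, so that the difference turned to -0.0227 percentage points (exact permutation p = 0.2).

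Between the genotypes 5 of the 126 members had an edgeR adjusted p of 0.05 or less and were called, which is 3.97% of them. Over all 16699 genes tested, 1.9% were called (1.28% lower and 0.629% higher in knock-in). At an adjusted p of 0.10 the count was 10 members, against 4.32% of all genes. The difference between these shares was not tested. Gm13944, Gm42428, Gm5083 and Gm42031 were lower in knock-in and Gt(ROSA)26Sor was higher. All 126 members passed the filter on low counts. Their median log2 fold change was -0.03, against 0.01 over all genes tested, with the quartiles at -0.16 and 0.16 and a range of -1.32 to 0.70. In bulk tissue, fewer cells of a type and less RNA per cell cannot be told apart. Purkinje cell markers were lower in the same libraries: 8 of 17 were called lower and none higher, and their summed level was 14270 to 16140 CPM in wild type and 9368 to 11330 CPM in knock-in. Bergmann glia and astrocyte markers had 4 of 12 called lower, with a summed level of 4968 to 5182 CPM in wild type and 3686 to 4279 CPM in knock-in. Granule neuron markers had 2 of 15 called lower and oligodendrocyte markers 2 of 10. Interferon-response genes had 7 of 15 called higher, with a median log2 fold change of 1.07 and a summed level of 125 to 170 CPM in wild type and 227 to 415.5 CPM in knock-in. Choroid plexus markers had none of 9 called by edgeR or DESeq2 and 1 with an unadjusted p under 0.05, and their sum ran from 28.1 CPM in knock-in sample 2 to 1920 CPM in wild-type sample 3. The part of all these markers in the members' differences was not tested.

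**Figure D2:**
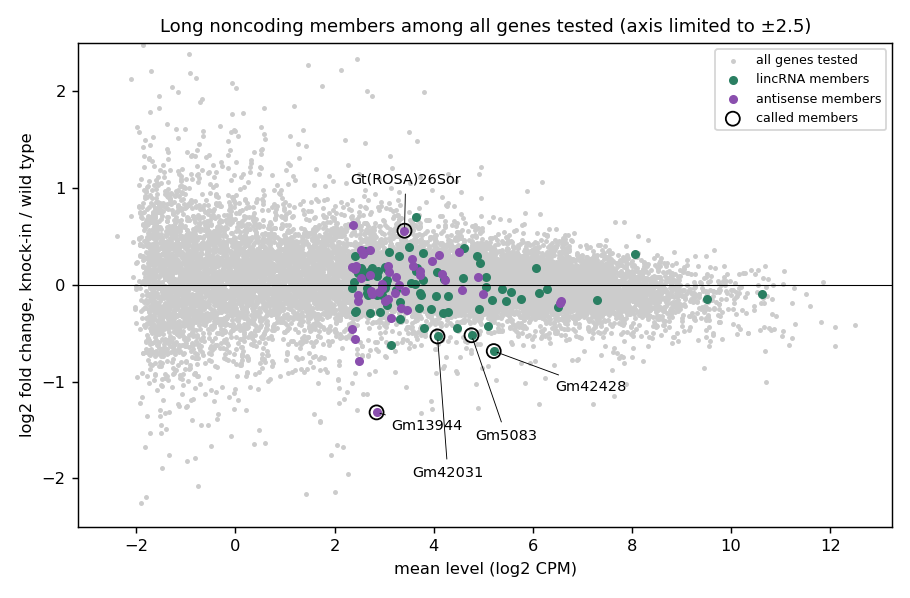
Log2 fold change (knock-in over wild type) against mean level (log2 CPM) for all 16699 genes tested in grey, of which those beyond the axis limits are not drawn, with lincRNA members in green, antisense members in purple and the 5 called members circled. The members cluster around 0, Gm13944 stands lowest at -1.32, and Gt(ROSA)26Sor is the only called member above 0.

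Gm13944 had the largest difference of any member. It is an antisense gene of 4 exons at chr2:77462669-77480938 (GRCm38, plus strand) that lies inside the body of Zfp385b, a zinc finger gene on the minus strand, and shares no exon with it. Its level was 11.2, 9.33 and 9.89 CPM in the wild-type samples against 3.76, 4.47 and 3.95 CPM in those with the knock-in. Every wild-type sample lay far above every knock-in sample, and the knock-in samples lay close together. The log2 fold change was -1.32 ± 0.13, a 2.49-fold lower level (edgeR adjusted p = 0.00175). Zfp385b itself was at 66.7, 69.2 and 61.2 CPM in the wild-type samples against 54.9, 67.7 and 59.2 CPM in those with the knock-in, with overlapping groups (log2 fold change -0.12 ± 0.10, edgeR adjusted p = 0.556). Gm13944 had no match of 100 or more bases at 90% identity in another gene's transcripts, and it was called in all 13 alternative fits, those without 1 library included.

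Mirt1, a lincRNA described in heart after infarction, was 3.96 CPM by column totals and so fell below the floor of 5 CPM; it is given for comparison only. It lies at chr19:53443230-53464796 on the minus strand, 52652 bases from Smndc1, the nearest coding gene. Its level was 8.28, 4.46 and 5.48 CPM in the wild-type samples against 2.30, 1.63 and 1.87 CPM in those with the knock-in. The groups did not overlap (log2 fold change -1.65 ± 0.24, edgeR adjusted p = 0.0127). Smndc1, which codes for a splicing factor, had a log2 fold change of -0.06 ± 0.09 (edgeR adjusted p = 0.773). Without knock-in sample 3 the adjusted p of Mirt1 was 0.0565.

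Gm5083 is a lincRNA of 5 exons at chr13:44121167-44125179 (plus strand), 318035 bases from Cd83, which codes for an immune cell surface protein and is the nearest coding gene. Its level was 35.3, 29.0 and 31.4 CPM in the wild-type samples against 20.9, 22.2 and 23.6 CPM in those with the knock-in. The groups did not overlap, and the log2 fold change was -0.52 ± 0.10, a 1.44-fold lower level (edgeR adjusted p = 0.0307). Cd83 had a log2 fold change of 0.18 ± 0.14 (edgeR adjusted p = 0.520).

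Gm42428 and Gm42031 were also lower, but their reads cannot be assigned with certainty. Gm42428 is a single exon of 302 bases at chr5:44136620-44136921 (plus strand), 34588 bases from Prom1, a membrane glycoprotein gene. It was at 46.5, 46.7 and 43.5 CPM in the wild-type samples against 25.3, 33.4 and 26.3 CPM in those with the knock-in (log2 fold change -0.69 ± 0.11, edgeR adjusted p = 0.0178). Gm42031 has 2 exons at chr8:85125872-85132289 (minus strand), 2777 bases from the zinc finger gene Zfp791, and was at 18.8, 20.9 and 19.97 CPM in the wild-type samples against 12.5, 15.1 and 13.6 CPM in those with the knock-in (log2 fold change -0.53 ± 0.10, edgeR adjusted p = 0.0334). In both, knock-in sample 2 was the knock-in sample nearest to wild type, and the groups did not overlap. Both match the same much more abundant transcript, Gm43305 (chr14:54292443-54297456): Gm42428 at 99.0% identity over all its 302 bases and Gm42031 at 98.7% over 748 bases. Gm43305 was at 1627, 2033 and 1921 CPM in the wild-type samples against 1187, 1630 and 1298 CPM in those with the knock-in. Its groups overlapped by the narrow margin between knock-in sample 2 and wild-type sample 1 (log2 fold change -0.44 ± 0.12, edgeR adjusted p = 0.101). Gm42031 matched transcripts of 16 genes in all over 97.4% of its length, of which 11 were tested and none was called. The nearest coding genes did not pass the test: Prom1 had a log2 fold change of -0.22 ± 0.09 and Zfp791 of -0.18 ± 0.11.

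Gt(ROSA)26Sor was the called member that was higher. It is the noncoding gene of the Rosa26 locus (chr6:113067428-113077333, minus strand), which is expressed in most tissues and widely used to insert transgenes; the labels name no transgene there. Its level was 7.93, 8.61 and 9.22 CPM in the wild-type samples against 13.3, 12.0 and 12.6 CPM in those with the knock-in. All knock-in samples lay above all wild-type samples, and the log2 fold change was 0.56 ± 0.11, a 1.47-fold higher level (edgeR adjusted p = 0.0353). It overlaps Thumpd3, which codes for a tRNA methyltransferase on the other strand, and 145 of its exonic bases (8.6%) coincide with exons on that strand. Thumpd3 was at 29.3, 27.4 and 30.7 CPM in the wild-type samples against 25.3, 23.4 and 28.5 CPM in those with the knock-in (log2 fold change -0.18 ± 0.10, edgeR adjusted p = 0.365).

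The calls for Gm42428, Gm5083, Gm42031 and Gt(ROSA)26Sor were each lost when any library other than knock-in sample 2 was left out. Without wild-type sample 1, 2 or 3, or knock-in sample 1 or 3, their edgeR adjusted p-values lay from 0.0540 to 0.103 for Gm42428, from 0.0537 to 0.143 for Gm5083, from 0.0865 to 0.152 for Gm42031 and from 0.0853 to 0.141 for Gt(ROSA)26Sor. Without knock-in sample 2 all 4 were called. Over all 13 alternative fits their log2 fold changes ran from -0.83 to -0.60 for Gm42428 and from -0.59 to -0.45 for Gm5083. They ran from -0.61 to -0.46 for Gm42031 and from 0.49 to 0.63 for Gt(ROSA)26Sor.

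**Figure D3:**
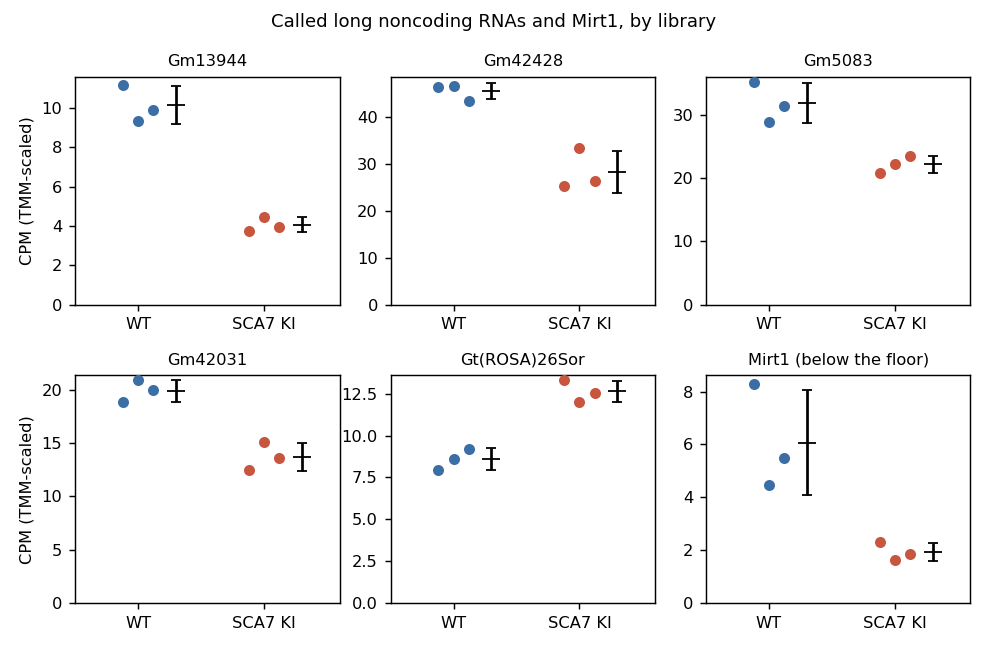
Level (CPM, TMM-scaled, axes from 0) of the 5 called members and of Mirt1, which lies below the floor, in each of the 3 wild-type (blue) and 3 knock-in (red) libraries, with the mean and SD in black. In every panel the groups do not overlap, and Gt(ROSA)26Sor alone is higher in knock-in.

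The groups did not overlap for 35 members (27.8%), 20 lower and 15 higher, where 23.8% of all genes tested did not overlap (11.5% lower and 12.3% higher). This share is near that of all genes and is no result about the members. The 8 uncalled members with the largest difference among those 35 were Gm37885, Mir670hg, D430036J16Rik, Dlx4os, 9330102E08Rik and Lhx1os, with lower values in knock-in, and Gm13375 and Fam120aos, with higher values.

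Gm37885 was at 6.15, 6.80 and 8.37 CPM in the wild-type samples against 3.14, 4.87 and 4.29 CPM in those with the knock-in (log2 fold change -0.79 ± 0.19, edgeR adjusted p = 0.0672). It lies opposite Capn2, a calpain protease gene, and 86.5% of its exons coincide with exons on the other strand. Capn2 had a log2 fold change of -0.13 ± 0.07. Reads of the member and of Capn2 cannot be told apart where exons coincide if strand was not used in the counting.

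Mir670hg, the host of Mir129-2 and Mir670 shown above, was at 11.8, 11.7 and 8.39 CPM in the wild-type samples against 7.36, 6.15 and 7.30 CPM in those with the knock-in. Wild-type sample 3 lay nearest to the knock-in samples (log2 fold change -0.62 ± 0.15, edgeR adjusted p = 0.0806). The nearest coding gene, Hsd17b12, which codes for a fatty acid elongation enzyme, had a log2 fold change of -0.18 ± 0.08.

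D430036J16Rik was at 5.86, 6.54 and 6.43 CPM in the wild-type samples against 4.14, 4.42 and 4.21 CPM in those with the knock-in (log2 fold change -0.56 ± 0.13, edgeR adjusted p = 0.0647). It starts 2277 bases from Htr1b, the gene of a serotonin receptor, and overlaps it on the other strand, where 38.1% of its exonic bases coincide with other exons. Htr1b was at 34.3, 36.9 and 30.6 CPM in the wild-type samples against 23.7, 25.2 and 23.4 CPM in those with the knock-in. Htr1b fell by 0.49 ± 0.09 on the log2 scale (edgeR adjusted p = 0.0307); without wild-type sample 1, 2 or 3, or knock-in sample 1 or 3, its adjusted p lay from 0.0537 to 0.136.

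Lhx1os starts 125 bases from Lhx1, a transcription factor gene of Purkinje cells, and runs the other way from it. It was at 45.9, 35 and 36.4 CPM in the wild-type samples against 27.3, 28.6 and 31.6 CPM in those with the knock-in (log2 fold change -0.42 ± 0.11, edgeR adjusted p = 0.0956). Lhx1 was at 60.7, 67.8 and 55.7 CPM in the wild-type samples against 40.6, 55.8 and 43.8 CPM in those with the knock-in (log2 fold change -0.39 ± 0.12, edgeR adjusted p = 0.141). Neither passed the test, and the groups overlapped for Lhx1 by knock-in sample 2. The Purkinje cell markers given above were lower in the same libraries, and their part in the Lhx1os difference was not tested.

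Of the other uncalled members of this kind, Dlx4os had a log2 fold change of -0.46 ± 0.16 (edgeR adjusted p = 0.170) beside -0.18 ± 0.19 for Dlx4, a homeobox gene. 9330102E08Rik had -0.45 ± 0.11 (edgeR adjusted p = 0.0814) beside -0.22 ± 0.11 for Tspan9, a tetraspanin gene. Gm13375 had 0.62 ± 0.18 (edgeR adjusted p = 0.117) beside -0.08 ± 0.12 for Arhgap21. Fam120aos had 0.39 ± 0.12 (edgeR adjusted p = 0.139) beside -0.01 ± 0.10 for Fam120a, an RNA-binding protein gene. In the last 2 pairs the starts are 173 and 270 bases apart, and the groups overlapped for the coding gene and not for the member.

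The members were next ordered by how they lie to their nearest coding gene. In 40 the gene started on the opposite strand within 2 kb of the member's own start, a head-to-head arrangement. Another 34 lay apart on the same strand, 30 overlapped the coding gene on the opposite strand, 11 lay apart head to head, 8 lay apart tail to tail and 3 overlapped on the same strand. The median distance between the starts of the 40 close head-to-head pairs was 350 bases. None of these 40 members was called by edgeR or limma-voom, 2 were called by DESeq2, and 11 had an unadjusted edgeR p under 0.05; 14 did not overlap between groups, 5 lower and 9 higher. These counts are 27.5% and 35% of the 40, where all genes tested gave 18.1% and 23.8%, and the difference from all genes was not tested. The called members were 2 of the 34 apart on the same strand, 2 of the 30 overlapping on the opposite strand and 1 of the 11 apart head to head.

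The differences of members and neighbours were weakly related. Over the 115 members whose nearest coding gene was tested, Pearson's r between the 2 log2 fold changes was 0.15 and Spearman's rank correlation 0.21, with the same sign in 64. In the 40 close head-to-head pairs r was 0.32, the rank correlation 0.28, and 24 had the same sign. For the 29 pairs overlapping on the opposite strand r was 0.19, and for the 29 pairs apart on the same strand it was 0.05. All pairs share the same 6 libraries, so these values describe the data and carry no test.

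**Figure D4:**
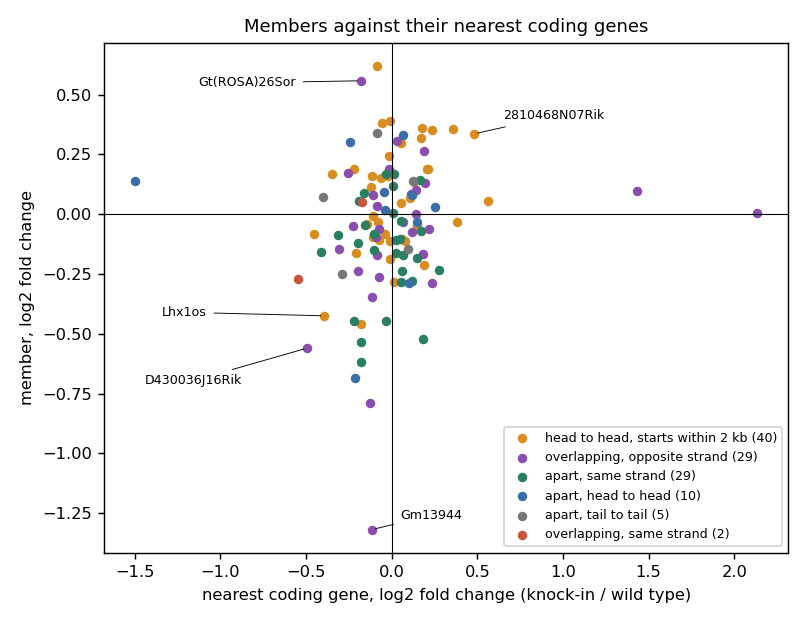
Log2 fold change (knock-in over wild type) of 115 members against that of the nearest coding gene, with 1 point per pair coloured by arrangement and the number of pairs in the legend. Most pairs lie within 0.5 of 0 on both axes, Gm13944 lies at -1.32 beside a Zfp385b value of -0.12, and the points furthest right and left are coding genes whose member is near 0.

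The nearest coding genes were 123 in number, 114 were tested, and 5 were called (4.39%, against 1.9% of all genes tested, a difference that was not tested). For 26 of them the groups did not overlap, which at 22.8% is near the 23.8% of all genes. Sox8, a transcription factor gene of the oligodendrocyte lineage, was at 25.2, 32.5 and 29.8 CPM in the wild-type samples against 41.9, 40.6 and 39.5 CPM in those with the knock-in. It rose by 0.48 ± 0.10 on the log2 scale (edgeR adjusted p = 0.0436), with an adjusted p of 0.0600 to 0.153 when any library other than knock-in sample 2 was left out. Its head-to-head partner 2810468N07Rik, which starts 328 bases away, was at 21, 17.9 and 21.9 CPM in the wild-type samples against 27.6, 22.3 and 26.8 CPM in those with the knock-in. The member's groups did not overlap, and its difference did not pass the test (log2 fold change 0.34 ± 0.11, edgeR adjusted p = 0.171).

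With Htr1b, described above, the other called neighbours were Fam78b, Scn9a and Tmc3, and the members beside them had values near 0. Fam78b fell by 0.45 ± 0.09 on the log2 scale while Gm16701, 576 bases away, had -0.08 ± 0.11. Tmc3 rose by 1.43 ± 0.19 while Gm16638, which lies across it on the other strand, had 0.10 ± 0.11. Scn9a, a sodium channel gene, rose by 2.13 ± 0.41, from 0.205, 0.239 and 0.155 CPM in wild type to 1.38, 0.628 and 0.668 CPM in knock-in, while Gm13629 on the other strand had 0.01 ± 0.12. Tmc3 was called without each library in turn. Without wild-type sample 1, 2 or 3, or knock-in sample 1 or 3, the edgeR adjusted p lay from 0.0750 to 0.180 for Fam78b and from 0.0663 to 0.139 for Scn9a. Brainstem markers were at a summed 16.9, 24 and 18.8 CPM in the wild-type samples against 93.0, 16.8 and 55.2 CPM in those with the knock-in, and none of the 17 was at 0 in every library. Of the 8 tested, 1 was called higher (Slc18a2) and 4 lay above all wild-type samples in every knock-in sample. These 4 were Slc6a2, Slc18a2, Tph2 and Slc5a7. In knock-in sample 2 the sum was the lowest of the 6 libraries, and Th, at 13.4, 15.4 and 14.6 CPM in wild type, was at 7.36 CPM there. The part of brainstem markers in the neighbours' differences was not tested.

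No member known as a host of small RNAs was called by edgeR. Together 7 members contained 22 microRNA hairpins of the RefSeq table, and Meg3 also held the mature sequence of Mir1906-1. Of the hairpins, 14 lay in Mirg, a maternally expressed transcript of the imprinted Meg3 region. Of the 3 miR-9 hosts, C130071C03Rik was at 69.5, 59.0 and 59.5 CPM in the wild-type samples against 70.9, 70.8 and 69.7 CPM in those with the knock-in. Its groups did not overlap, with wild-type sample 1 just below the lowest knock-in sample (log2 fold change 0.17 ± 0.09, edgeR adjusted p = 0.327). Mir9-3hg had a log2 fold change of 0.08 ± 0.09 and Gm3764 of -0.03 ± 0.10. The miR-124 host Mir124a-1hg was at 80.0, 60.7 and 75.7 CPM in the wild-type samples against 64.8, 73.7 and 65.4 CPM in those with the knock-in, with overlapping groups (log2 fold change -0.09 ± 0.11).

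Of the list of microRNA host genes, 9 were tested, 6 of them members, and none was called by edgeR; 1 had an unadjusted p under 0.05 and DESeq2 called 1. The 16 tested hosts of small nucleolar RNAs, including the members Snhg6 (0.17 ± 0.13) and Snhg12 (0.14 ± 0.13), had a median log2 fold change of 0.17 and none called by edgeR, with 3 at an unadjusted p under 0.05 and 1 called by DESeq2. Over all genes tested 18.1% had such an unadjusted p. In this list 5 genes did not overlap between groups, all higher in knock-in, where 12.3% of all genes tested did so higher and 11.5% lower. The difference from all genes was not tested. Among the 5, Snhg11, a host gene abundant in neurons, was at 184, 119 and 182 CPM in the wild-type samples against 221, 194 and 203 CPM in those with the knock-in (log2 fold change 0.35 ± 0.15, edgeR adjusted p = 0.245).

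No imprinted RNA of the list was called by edgeR. Of 8 tested genes, 4 of them members, neither edgeR nor DESeq2 called any. An unadjusted edgeR p under 0.05 was found for 3 of the 8, and for 18.1% of all genes tested. The difference from all genes was not tested. The smallest p of the list was that of H19, a maternally expressed RNA far below the floor, named after its values were seen. It was at 0.738, 0.978 and 1.19 CPM in the wild-type samples against 0.406, 0.377 and 0.557 CPM in those with the knock-in. Its groups did not overlap, and its difference did not pass the test (log2 fold change -1.11 ± 0.31, edgeR adjusted p = 0.101). Rian, which lies beside Meg3 in the same imprinted region and is not of either gene type, had a log2 fold change of 0.31 ± 0.11 (edgeR adjusted p = 0.193), close in size to the 0.32 of Meg3. Mirg, further along the region, had 0.18 ± 0.15. Kcnq1ot1, the silencing transcript of its own imprinted cluster, had -0.17 ± 0.13. Airn, which silences Igf2r on the paternal chromosome, was at 12.3, 9.71 and 10.8 CPM in the wild-type samples against 8.82, 8.46 and 10.6 CPM in those with the knock-in, and its log2 fold change of -0.24 ± 0.13 stood beside -0.20 for Igf2r.

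The list of nuclear body and abundant nuclear RNAs showed no call either. Malat1, a nuclear speckle RNA, was at 95.9, 105 and 92.4 CPM in the wild-type samples against 104, 76.0 and 69.1 CPM in those with the knock-in, with knock-in sample 1 inside the wild-type range (log2 fold change -0.23 ± 0.14). Neat1, the scaffold of paraspeckles, was at 51.9, 36.8 and 50.9 CPM in the wild-type samples against 49.3, 33.6 and 41.1 CPM in those with the knock-in, so that the spread within each group was larger than the difference (-0.17 ± 0.16). Tug1 had -0.16 ± 0.09. Of the 13 tested genes of this list, 6 of them members, edgeR and DESeq2 called none and 3 had an unadjusted p under 0.05. The list is not of nuclear RNAs alone: it also holds Norad, described next, and Snhg11 and Tunar, which GENCODE annotates as protein-coding.

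Norad (2900097C17Rik) is a cytoplasmic RNA that binds Pumilio proteins through the motif TGTANATA. Its transcript holds 11 of these motifs (2.24 per kb), and that of its partial copy Gm7292 holds 9 (3.56 per kb), while only 38 of the 126 members have any. Norad was at 33.2, 34.8 and 30.1 CPM in the wild-type samples against 30.4, 30.0 and 21.9 CPM in those with the knock-in (log2 fold change -0.25 ± 0.13, edgeR adjusted p = 0.324). Gm7292 was at 168, 174 and 155 CPM in the wild-type samples against 164, 152 and 128 CPM in those with the knock-in (-0.16 ± 0.10). Since 51.6% of Norad and all of Gm7292 match each other, the division of reads between them is uncertain.

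Genes of proteins that act on such RNAs had no call. Of 18 paraspeckle protein genes none was called by edgeR or DESeq2, 2 had an unadjusted p under 0.05, and the median log2 fold change was -0.01; Hnrnpk had -0.03 ± 0.07. Of 26 genes of the nuclear exosome and its adaptors, which degrade short-lived nuclear RNA, none was called by either tool, 3 had an unadjusted p under 0.05, and the median was 0.01.

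Of 15 tested noncoding genes linked to developmental regulators, 3 of them members (Lhx1os, Dlx4os and Pantr1), 1 was called. This was Hotairm1, an antisense RNA of the HoxA cluster far below the floor, at 0.061, 0.048 and 0.052 CPM in the wild-type samples against 0.57, 0.35 and 0.36 CPM in those with the knock-in (log2 fold change 2.91 ± 0.48, edgeR adjusted p = 0.0185). Without wild-type sample 1, 2 or 3, or knock-in sample 1 or 3, its adjusted p lay from 0.0565 to 0.103. The list of brainstem markers includes other Hox genes, also far below the floor, and for each of these the groups overlapped. Mean CPM in wild type and knock-in was 0.1199 and 0.1199 for Hoxa2, and 0.1024 and 0.1007 for Hoxb2. It was 0.1134 and 0.1003 for Hoxa3, and 0.1364 and 0.1449 for Hoxb5. For Hoxa5 it was 0.0417 and 0.0987, and for Hoxb3 0.1285 and 0.174. Only Hoxb3 was tested, and it was not called (edgeR adjusted p = 0.855). The part of brainstem markers in the Hotairm1 difference was not tested.

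How the counting treated strand bears on 58 members, whose exons coincide in part with exons on the other strand. For 8 of them the overlap was at least 50% of the exonic bases. Of these 58, 1 was called (Gt(ROSA)26Sor), and of the 68 without such overlap 4 were called. The strand setting is not given in the sources used here. In the table, 50 coding genes were at least 90% covered by exons on the other strand, and 9 of these had a mean count of 100 or more. Of the 9, only Pdcd2 was wholly covered, by exons of Tbp among others, and it had a mean count of 670; it was chosen after its values were seen. Whether the counting used strand was not tested.

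The members were also described by features that the rule did not use. Their median exonic length was 3040 bases and 28 had a single exon block. A polyadenylation signal (AATAAA or ATTAAA in the last 50 bases) was present in 64.3% of their transcripts, against 71.7% over all genes tested, in libraries made from polyadenylated RNA. Across members, Spearman's rank correlation between log2 fold change and exonic length was 0.01, against -0.22 across all genes tested. With G and C content it was 0.18, against 0.32 across all genes. These are correlations across genes of the same libraries, which are not independent replicates.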

How the data were processed

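Per the submitters' processing notes the authors counted reads per Ensembl gene with HTSeq 0.6.1, and the table holds these raw counts as deposited. Named there too are TopHat2 2.0.14 and Bowtie2 2.1.0, bcl2fastq 2.17.1.14, and the build mm10. Neither the annotation release nor the strand setting is given in the sources used here. Gene types and coordinates came from GENCODE M21 (mm10), which matched 48349 of 48709 identifiers. The readthrough models Gm20388 and Gm37388 were not taken as nearest coding genes, and no other model was left out for this reason. Copies were searched with blastn 2.17.0. The test was edgeR 4.0.16 (R 4.3.3) over all genes: filterByExpr (minimum count 10), scaling by TMM, a quasi-likelihood F test of genotype, Benjamini-Hochberg adjustment, calls at 0.05. The SE is the absolute log2 fold change over the square root of F. Alternatives used DESeq2 1.42.0 and limma 3.58.1. The fit was also run on counts simulated from its own means and dispersions, which does not check how well the model suits these samples. Members and lists were chosen with earlier results of these data known. The naming rule covered Mirt1, Gm13944, called members, the 10 most abundant and the 8 largest uncalled without overlap. It also covered genes at the floor, the leading genes of each list and nearest coding genes. Some of these, such as 4933431E20Rik, Peg13, Matr3 and Mtrex, are not described. Others were named after their values were seen. Libraries within a group differed beyond sampling noise (chi-square per degree of freedom 14.2 to 30.8) and each counted as 1 sample. Atxn7 was level (log2 fold change -0.12, adjusted p = 0.521) and does not check the genotype.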

Additional observations from a re-analysis of the deposited data

How the results depend on the processing

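The 5 called members, 4 lower and 1 higher, were also the 5 called with library size alone, RLE size factors, a floor of 1 CPM and limma-voom. With no filter on low counts 15 members were called, with DESeq2 11, at an adjusted p of 0.10 10, and among lincRNA or antisense members alone 3 and 2. Leaving out 1 library gave 1 to 6. The 1 was Gm13944, without any wild-type sample or without knock-in sample 1 or 3, and the 6 came without knock-in sample 2. Members with opposite-strand exon overlap counted 4 with no filter, 3 with DESeq2, 3 at 0.10 and 0 to 2 with a library left out; members without it counted 11, 8, 7 and 1 to 4. Nearest coding genes counted 13, 11, 8 and 1 to 10. The role lists counted 2 with library size alone, 8 with no filter, 0 at a floor of 1 CPM, 3 with DESeq2, 4 at 0.10 and 0 to 2 with a library left out. Over all genes, 318 calls (213 lower, 105 higher) became 513 with library size alone (190 lower, 323 higher), 1303 with no filter, 899 with DESeq2, 721 at 0.10 and 39 to 858 with a library left out. The cause of these differences was not tested. At a floor of 2 CPM 7 of 266 candidates were called, and at 10 CPM 4 of 62. The difference in library share turned from 0.0020 to -0.0227 percentage points with TMM-scaled library sizes. Leaving out 1 library, it ran from -0.0089 to 0.022 percentage points.

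Whether the replicate numbers of the labels pair the samples is not known, and the main fit used no pairing. Deviations from the group means had correlations of -0.0028, 0.166 and 0.307 between same-numbered libraries. Wild-type samples 2 and 3 correlated best with the knock-in sample of their own number, and wild-type sample 1 with knock-in sample 2 (0.105). With a replicate block 16 members were called (9 lower, 7 higher), 5 with and 11 without opposite-strand overlap, 20 nearest coding genes, 12 genes of the role lists and 2034 genes in all. At 5 CPM and 3 samples a group, smaller differences than those called may not be detectable.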
